A study of Mus musculus with 12 samples.

Results

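NCoR, the nuclear receptor corepressor, works in a complex of proteins that shuts down transcription. The scaffold protein NCoR1 binds nuclear receptors that carry no activating ligand, and holds the histone deacetylase HDAC3, which removes acetyl groups from histones. The paralogs TBL1X and TBL1XR1 are WD40 repeat proteins of the same complex that bind histone tails and help to exchange corepressors for coactivators, and GPS2 is a small subunit that restrains JNK signalling. In the liver this complex is known for repressing clock genes and genes of lipid metabolism. The genes described here are Tbl1xr1, Tbl1x, Ncor1, Hdac3 and Gps2, taken as the probe sets that the platform's probe table pairs with exactly 1 of these symbols. The rule found 5 probe sets for 4 of the 5 symbols, among 21789 probe sets with exactly 1 symbol (19938 genes). Tbl1xr1 had 2 probe sets, the others 1 each, and Ncor1 was not analysed here. Tbl1xr1 and its complex were picked because the 4 h change of Tbl1xr1 was known, so the levels and changes of the members are given as a description, with no test.

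Expression was measured on 12 Affymetrix microarrays of primary mouse hepatocytes, the parenchymal cells of the liver, 3 arrays in each of 4 groups. The cells of every group came from male C57BL/6 mice, were isolated with collagenase, and were cultured in HepatoZYME-SFM, a serum-free medium. This medium was renewed 4 h after seeding, the culture went on for 24 h, and the medium was exchanged again 1 h before stimulation. The control cells were untreated, and the other groups received 1 ng/ml recombinant human TGF-β1, a cytokine that signals through SMAD proteins, for 20 min, 2 h or 4 h. Control cells were taken at the start only, so that treatment and time since the last medium exchange cannot be told apart. The labels give the age of no mouse and do not say whether the replicates came from separate animals, so p-values measure the spread between these arrays, which may be technical.

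Values are log2 signals, on which a difference of 1 is a doubling, and changes were estimated with limma, a linear model fitted to all probe sets in which time and replicate were the factors. The SE of a change is limma's. It rests on the spread over all 12 arrays, drawn toward that of other probe sets, and not on the 3 differences alone. The median log2 signal of the arrays lay between 6.82 and 6.93. The arrays of replicate 1 stood apart in every group: their correlation with the other arrays of their group was 0.977 to 0.985, against 0.996 to 0.999 between replicates 2 and 3. The 8 hepatocyte markers had mean log2 signals between 12.49 and 14.63 in all groups, with Alb, Ttr and Apoa1 among them, and 1 of them, Tat, fell at 4 h (limma, adjusted p = 0.0464). Of 10 macrophage markers 4 fell at 4 h (limma, adjusted p under 0.05). The summed linear signal of all 10 was 5187 to 6167 on control arrays and 4042 to 5026 on 4 h arrays. Most of this sum is Cd68, the brightest of them at 11.98 in the control. Cd68 did not pass at 4 h (-0.24 ± 0.11, limma, adjusted p = 0.267). Of the markers that fell, the complement gene C1qb did so by 0.74 ± 0.13 (SE, n = 3; limma, adjusted p = 0.0118). Lyve1 fell among 6 endothelial markers (1480 to 2513 summed in the control, 1444 to 2294 at 4 h). All 6 had their highest control signal in replicate 1, as Cdh5 with 10.23, 9.31 and 9.19 in replicates 1, 2 and 3. Cldn4 rose among 4 cholangiocyte markers (385.1 to 403.4 and 460.2 to 796.1), with a change of 1.05 that was 0.52 without replicate 1. The rise of this sum is mostly Cldn4. Krt7, Krt19 and Epcam had 4 h changes of 0.15, 0.03 and 0.08 and did not pass. Of 6 stellate cell markers 0 passed the test (1 at an unadjusted p under 0.05). No marker was at 0, since array signals have a floor of background. In a bulk sample fewer cells of a type and less RNA per cell cannot be told apart, and the part of these markers in the results on the NCoR complex was not tested.

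Tbl1xr1 had its highest signal at 4 h on both of its probe sets. On probe set 10491038, the brighter of the pair, the control arrays had log2 signals of 9.55, 9.96 and 9.85 in replicates 1, 2 and 3. The 20 min arrays had 9.59, 9.67 and 9.77, and the 2 h arrays had 9.55, 10.01 and 9.89. At 4 h the signals were 10.49, 10.55 and 10.32. All 4 h arrays were above every control, 20 min and 2 h array, while the 3 earlier groups overlapped one another. How many of all probe sets separate in this way was not counted, and the gene was picked for its 4 h change. Ordered by their means, the groups ran from 20 min (9.67 ± 0.09, SD, n = 3) to control (9.79 ± 0.21), 2 h (9.81 ± 0.24) and 4 h (10.45 ± 0.12), and only the step to 4 h was wider than the spread of its neighbours.

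The other Tbl1xr1 probe set, 10491056, gave control signals of 8.9998, 9.4956 and 9.5149. At 20 min they were 8.76, 9.25 and 9.17, and at 2 h 9.17, 9.51 and 9.71. At 4 h they were 9.999, 10.005 and 9.806. The 4 h arrays again lay above all others, by a narrower margin over 2 h than on the first probe set. In replicate 1 the earlier arrays were dimmer than those of replicates 2 and 3, while its 4 h array was about as bright as theirs. The means were 9.06 ± 0.27 at 20 min, 9.34 ± 0.29 in the control, 9.46 ± 0.27 at 2 h and 9.94 ± 0.11 at 4 h (SD, n = 3), so the order of the groups was the same on both probe sets. Over the 12 arrays the pair correlated at r = 0.92 after each replicate's mean was subtracted. The points share their arrays and 4 groups.

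**Figure D1:**
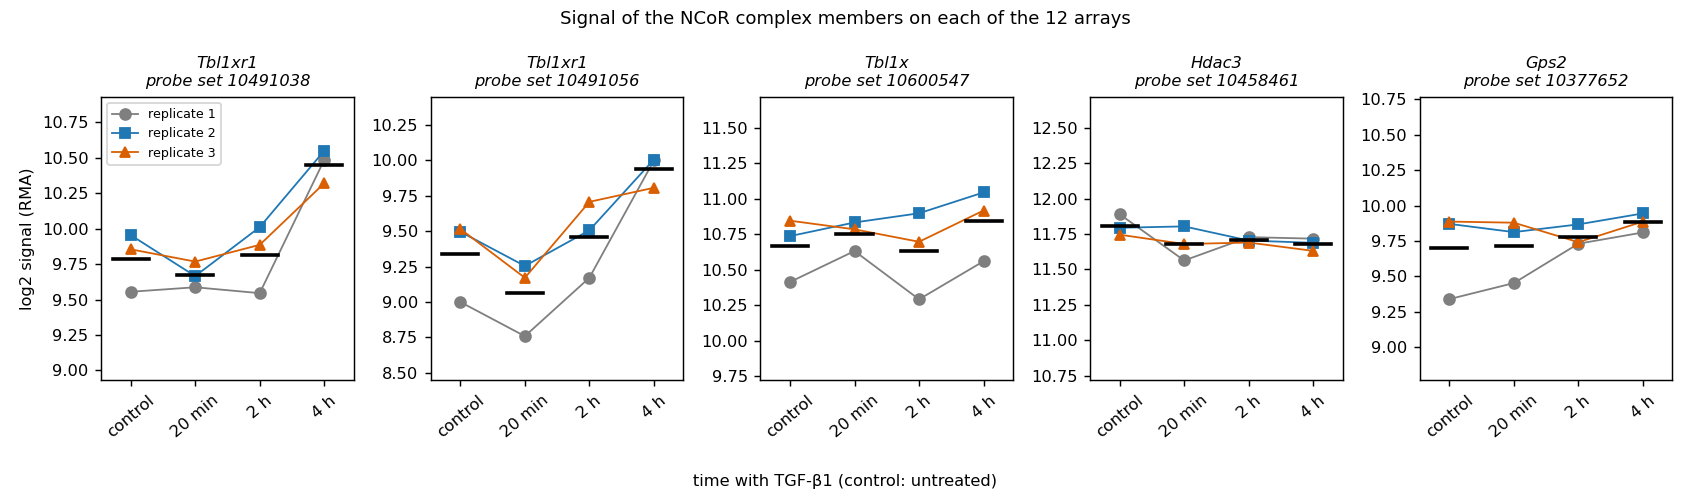
Log2 RMA signal (vertical axis) of the 5 probe sets of the NCoR complex on each array of the control, 20 min, 2 h and 4 h groups (horizontal axis). Coloured points joined by lines are replicates, black bars are group means, and every panel spans the same number of log2 units. Both Tbl1xr1 panels step up at 4 h to means of 10.45 and 9.94, while Hdac3 stays between group means of 11.68 and 11.81.

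Against the control of the same replicate, Tbl1xr1 was higher at 4 h by 0.66 ± 0.10 (SE, n = 3) on probe set 10491038, a fold of 1.58, with 0.93, 0.60 and 0.47 in replicates 1, 2 and 3. On probe set 10491056 it was higher by 0.60 ± 0.12, with 0.999, 0.510 and 0.291. The SD of the 3 differences was 0.24 on probe set 10491038 and 0.36 on probe set 10491056. Both changes were positive in 3 of 3 replicates and largest in replicate 1, the replicate that stood apart. Without replicate 1 they were 0.53 and 0.40. The lowest 4 h array exceeded the highest control array by 0.37 and 0.29, and 5.43% of all probe sets had every 4 h array above every control array. Ranked from the highest change down, the probe sets stood at places 68 and 95 of 21789.

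At 20 min the 2 probe sets of Tbl1xr1 lay below the control by differing amounts. Probe set 10491056 was lower in 3 of 3 replicates, by -0.24, -0.24 and -0.34, an estimate of -0.28 ± 0.12 (SE, n = 3). Probe set 10491038 had differences of 0.03, -0.29 and -0.09, an estimate of -0.11 ± 0.10. The arrays of the 20 min and control groups overlapped on both, as they did for every member, while 4.58% and 4.91% of all probe sets had all 20 min arrays above or below all control arrays. At 2 h the estimates were 0.03 ± 0.10 for probe set 10491038 and 0.12 ± 0.12 for probe set 10491056, close to 1 SE or less, and the 2 h and control arrays overlapped on both.

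From 2 h to 4 h Tbl1xr1 differed by 0.64 ± 0.27 (SD, n = 3) on probe set 10491038, with 0.94, 0.54 and 0.43 in the 3 replicates. On probe set 10491056 the step was 0.48 ± 0.36, with 0.83, 0.50 and 0.10. The step was positive in every replicate on both, but on the dimmer probe set replicate 3 contributed little. There the step before it, from 20 min to 2 h, was 0.40 ± 0.14 (SD, n = 3), with 0.41, 0.25 and 0.54, while the brighter probe set gave 0.14 ± 0.19 for the same interval. Both probe sets were thus highest at 4 h, and they differed in how far apart 20 min and 2 h lay.

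Tbl1x, on the X chromosome, encodes the paralog that can take the place of TBL1XR1 in the complex. Its log2 signals were 10.41, 10.74 and 10.85 in the control and 10.63, 10.83 and 10.79 at 20 min. They were 10.29, 10.90 and 10.70 at 2 h and 10.56, 11.05 and 10.92 at 4 h. All 4 groups overlapped, and replicate 1 was the lowest array in each of them. The change at 4 h was 0.18 ± 0.08 (SE, n = 3), a fold of 1.13, with 0.15, 0.31 and 0.07 in the 3 replicates. At 20 min it was 0.08 ± 0.08 and at 2 h -0.04 ± 0.08, each with replicates on both sides of 0. From 2 h to 4 h Tbl1x was higher in 3 of 3 replicates, by 0.27, 0.15 and 0.22.

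Within the same replicate the 4 h change of Tbl1xr1 exceeded that of Tbl1x by 0.49 ± 0.26 (SD, n = 3) on probe set 10491038, with 0.78, 0.29 and 0.39. On probe set 10491056 the excess was 0.42 ± 0.37, with 0.85, 0.20 and 0.22. The sign was the same in all 3 replicates on both probe sets, and replicate 1 gave the largest excess. As Tbl1xr1 was picked for its 4 h change, an excess over its paralog was favoured in advance. At 2 h the same differences were 0.06 ± 0.15 and 0.16 ± 0.27, within the spread of the replicates. These are differences between changes, since signals of different probe sets cannot be set against each other.

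**Figure D2:**
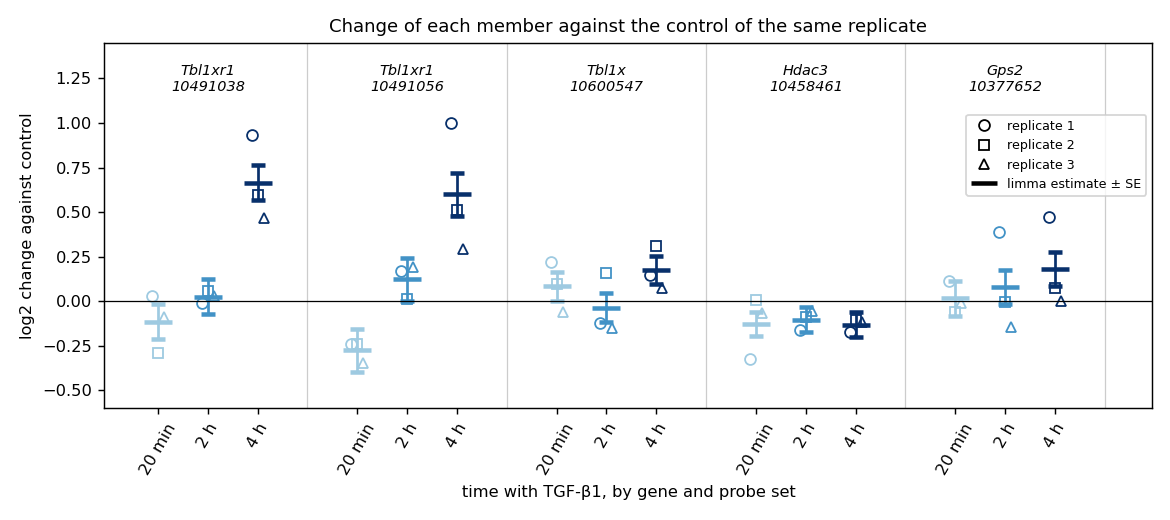
Log2 change against the control of the same replicate (vertical axis) for each probe set at 20 min, 2 h and 4 h (horizontal axis, grouped by gene). Open symbols are the 3 replicates, and the bar with caps is the limma estimate ± SE. The 4 h estimates of Tbl1xr1, 0.66 and 0.60, lie above those of Tbl1x (0.18), Gps2 (0.18) and Hdac3 (-0.13).

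The sequences around the starts of Tbl1xr1 and its paralog Tbl1x are shown, 250 bases before to 50 bases after the start, from RefSeq on GRCm38.p6. Both lie on the plus strand, Tbl1xr1 at chr3:22076402-22076701 and Tbl1x at chrX:77510977-77511276. They are in lower case, 5′ to 3′, with the SMAD core motif GTCT in capitals.
Tbl1xr1: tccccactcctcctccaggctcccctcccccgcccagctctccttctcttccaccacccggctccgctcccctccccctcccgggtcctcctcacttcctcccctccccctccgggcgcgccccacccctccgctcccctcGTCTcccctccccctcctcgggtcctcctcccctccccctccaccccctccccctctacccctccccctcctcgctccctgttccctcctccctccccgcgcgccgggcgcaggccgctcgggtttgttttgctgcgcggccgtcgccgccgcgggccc
Tbl1x: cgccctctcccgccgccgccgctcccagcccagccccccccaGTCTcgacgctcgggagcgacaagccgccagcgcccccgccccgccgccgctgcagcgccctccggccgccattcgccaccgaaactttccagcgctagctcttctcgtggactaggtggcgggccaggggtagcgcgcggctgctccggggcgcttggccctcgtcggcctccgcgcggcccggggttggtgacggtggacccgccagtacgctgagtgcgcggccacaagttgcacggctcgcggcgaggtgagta
The Tbl1xr1 sequence is 80.7% pyrimidines against 55.7% for Tbl1x, with a similar share of G and C (76.3% and 75.3%). The heptamer CCCTCCC, chosen after the sequence was seen, occurs 9 times in it, overlapping matches included and all on the printed strand, and 0 times in Tbl1x. Shares are of 32851 promoter windows of this length, with those of 1 chromosome left out. Of these windows 22% hold the heptamer on either strand at least once, and 0.0122% hold it at least 9 times. GTCT occurs 1 time in each, as in 88% of the windows with at least 1 match. The longer SMAD motif CAGAC, whose reverse strand contains GTCT, occurs in neither and in 49.6% of the windows. GCGTGGGCG, bound by EGR factors (0.612% of windows), and the AP-1 motif TGANTCA (7.81%) were not found in these windows either, and GGGCGG, the GC box, occurs 1 time in each (35.7%). Both strands were searched, and matching letters do not show that a factor binds. Whether these sequences have a part in the 4 h changes was not tested.

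Hdac3, the deacetylase that gives the complex its enzymatic activity, had the narrowest range of the 5 probe sets over the 12 arrays, from 11.56 to 11.89. The control arrays read 11.89, 11.79 and 11.75, and the 20 min arrays 11.56, 11.80 and 11.68. The 2 h arrays read 11.73, 11.70 and 11.69, and the 4 h arrays 11.72, 11.69 and 11.63. At 2 h and at 4 h all arrays lay below all control arrays, by gaps of 0.02 and 0.03. A separation of that kind was seen downward in 2.55% of all probe sets at 2 h and in 5.58% at 4 h. The changes were -0.10 ± 0.07 at 2 h and -0.13 ± 0.07 at 4 h (SE, n = 3), lower in 3 of 3 replicates each time. Without the control array of replicate 1, the brightest of the 12, the 4 h change was -0.08. At 20 min it was -0.13 ± 0.07, with -0.33 in replicate 1 and values near 0 in the others (0.01 and -0.07).

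Gps2 had control signals of 9.34, 9.87 and 9.89 and 20 min signals of 9.45, 9.81 and 9.88. At 2 h it had 9.73, 9.87 and 9.74, and at 4 h 9.81, 9.94 and 9.89. The groups overlapped, and the low signals were those of replicate 1 in the control and at 20 min. The 4 h change of 0.18 ± 0.10 (SE, n = 3) was made up of 0.47, 0.07 and 0.00 in replicates 1, 2 and 3, and without replicate 1 it was 0.04. At 20 min and 2 h the changes were 0.02 ± 0.10 and 0.08 ± 0.10. The spread within groups narrowed from an SD of 0.31 in the control to 0.07 at 4 h, as replicate 1 came level with the others.

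Across the members, 2 of 5 probe sets, both of Tbl1xr1, had an adjusted p under 0.05 in limma at 4 h, against 4.59% of all 21789 probe sets. As the 4 h change chose the gene, nothing is read from that count. It was 0 of 5 without replicate 2, without replicate 3 and in a fit without the replicate number. At 20 min and at 2 h it was 0 of 5, as it was for all probe sets, of which 1843 and 1369 had an unadjusted p under 0.05, with 1 and 0 members among them. With the brighter Tbl1xr1 probe set, after each replicate's mean was subtracted, Gps2 correlated at r = 0.60, Tbl1x at 0.59 and Hdac3 at -0.31 over the 12 arrays. These points share arrays and groups, and the values describe them only.

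Among 12152 probe sets with a mean signal at or above the median, those whose pattern over the 12 arrays was most like Tbl1xr1 on probe set 10491038 were Fubp1, Dhx32, Urm1, Gnaq and Il6st. Their correlations were 0.97, 0.96, 0.96, 0.96 and 0.96 with each replicate's mean subtracted, and 0.84 to 0.93 with the other Tbl1xr1 probe set. Fubp1 encodes a single-stranded DNA binding protein, Dhx32 a helicase-like protein, Urm1 a ubiquitin-like modifier, Gnaq a G protein subunit and Il6st the shared receptor subunit gp130. Their 4 h changes were smaller than that of Tbl1xr1, at 0.54 ± 0.08 for Dhx32, 0.33 ± 0.06 for Il6st and 0.20 to 0.23 for the other genes (SE, n = 3). Most opposite were Agmat, which encodes agmatinase, Gamt, an enzyme of creatine synthesis, and Xdh, which encodes xanthine dehydrogenase, with correlations of -0.95, -0.93 and -0.93. Their 4 h changes were -0.22 ± 0.07, -0.23 ± 0.06 and -0.28 ± 0.07. With replicate means left in, the correlations ran from 0.66 to 0.96 for the like genes and from -0.57 to -0.28 for the opposite ones, with Dhx32 at 0.96 either way.

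**Figure D3:**
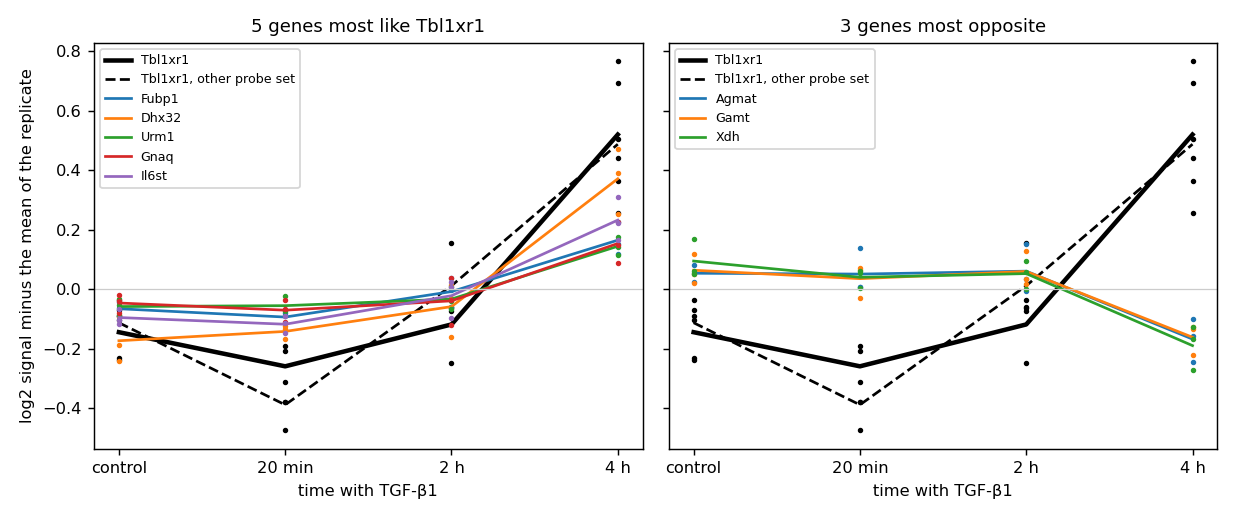
Log2 signal minus the mean of its replicate (vertical axis) in the control, 20 min, 2 h and 4 h groups (horizontal axis). Lines join group means and dots are single arrays, for Tbl1xr1 (black, its other probe set dashed) with the 5 most like genes on the left and the 3 most opposite on the right. The like genes step up at 4 h by less than Tbl1xr1, with Dhx32 nearest at 0.54 against 0.66.

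Around the complex, 10 gene lists held 118 measured genes. They cover its partners, factors that recruit it and known targets, and also coactivators and exchange enzymes, SMAD corepressors, other HDAC complexes and Wnt targets. Of the 118 genes 21 (17.8%) passed the test at 4 h, 6 higher and 15 lower (limma, adjusted p under 0.05). Of all probe sets 1.57% were called higher and 3.02% lower. These include probe sets of low signal, while each list gene was taken by its brightest probe set. In a fit to the 12152 probe sets with a mean signal at or above the median, 1081 were called. The lists were chosen with earlier results of these data known, so no enrichment is read from these shares. At 20 min and 2 h 0 of the 118 passed, with 12 and 17 at an unadjusted p under 0.05. The list calls rested on few arrays. Of the 118 genes 28 passed without replicate 1, 1 without replicate 2 and 0 without replicate 3. In a fit without the replicate number 0 passed. No called gene changed direction with a replicate left out, and dropping the replicate number leaves every estimate as it is. Leaving out 1 control array gave 12, 6 or 11 calls (replicates 1, 2 and 3), and leaving out the 4 h array of replicate 2 or 3 gave 5 or 6. The calls per list share that limit, with at most 1 call in any list without replicate 2 and 0 without replicate 3.

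Of 9 measured NCoR partners 1 rose and 8 did not pass the test, with a median change of 0.05 against 0.02 over all probe sets. The gene that rose was Hdac7, a class II deacetylase that binds NCoR, by 0.50 ± 0.09 (SE, n = 3; limma, adjusted p = 0.00979). Its signals were 7.405, 7.444 and 7.568 in the control and 7.878, 7.998 and 8.042 at 4 h, so that Hdac7 and Tbl1xr1 were both above their controls on all 4 h arrays. Of 24 genes of other HDAC complexes, Chd4, the helicase of the NuRD complex, rose by 0.34 ± 0.09 (adjusted p = 0.0498) and Phf21a, a subunit of the LSD1 and CoREST complex, fell by 0.53 ± 0.10 (adjusted p = 0.0162), with a list median of 0.06. The Phf21a differences were -0.91, -0.21 and -0.47 in the 3 replicates, and without replicate 1 its change was -0.34. Of the 4 SMAD corepressors that bind NCoR or HDACs, Skil and Ski rose and Tgif1 (0.21 ± 0.10) and Tgif2 (0.13 ± 0.10) did not pass, with a median of 0.32. Skil, a known early target of TGF-β, rose by 1.31 ± 0.28 (adjusted p = 0.0227), from 9.46, 9.01 and 9.04 to 9.95, 10.78 and 10.69. Ski rose by 0.43 ± 0.07 (adjusted p = 0.00572). In Skil replicate 1 gave the smallest of the differences, 0.49 against 1.77 and 1.65, whereas in Tbl1xr1 it gave the largest.

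Among 17 transcription factors that recruit NCoR, 3 fell, 1 rose and 13 did not pass the test (median -0.02). The factors that fell were the heme receptors Nr1d1 and Nr1d2, which encode REV-ERBα and REV-ERBβ and repress clock genes through NCoR and HDAC3, and the xenobiotic receptor Nr1i3. Nr1d1 fell by 0.67 ± 0.12 (SE, n = 3; limma, adjusted p = 0.0121), from 11.70, 10.90 and 10.95 to 11.34, 10.07 and 10.12. Nr1d2 fell by 0.42 ± 0.09 (adjusted p = 0.0219) and Nr1i3 by 0.32 ± 0.06 (adjusted p = 0.0151), while the retinoic acid receptor Rara rose by 0.37 ± 0.09 (adjusted p = 0.0426). Of the 4 measured clock genes that REV-ERB represses, 0 passed the test, 1 at an unadjusted p under 0.05. The estimates had a median of 0.20, but in replicate 1 Arntl (-0.19), Cry1 (-0.30) and Clock (-0.09) were lower at 4 h, while in replicates 2 and 3 all 4 genes were higher. Arntl, which encodes BMAL1, had 0.37 ± 0.17, and Nfil3, the gene with an unadjusted p under 0.05, had 0.30 ± 0.10, with 0.02 in replicate 1. Of 16 coactivators and exchange enzymes 2 fell and 0 rose (median -0.03), the ubiquitin ligase Siah2 by 0.32 ± 0.06 (adjusted p = 0.0142) and the PGC-1β gene Ppargc1b by 0.41 ± 0.08 (adjusted p = 0.0166).

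Of 12 thyroid hormone and LXR target genes, which include enzymes of lipid synthesis, sterol transporters and a deiodinase, 4 fell, 0 rose and 8 did not pass (median -0.20). The genes that fell were Dio1, the deiodinase that makes active thyroid hormone (-0.42 ± 0.08, limma, adjusted p = 0.0138), Thrsp (-0.41 ± 0.09, adjusted p = 0.0292), and the enzymes of fatty acid synthesis Acaca (-0.30 ± 0.07, adjusted p = 0.0355) and Acly (-0.29 ± 0.06, adjusted p = 0.020). The other Acaca probe set gave -0.25 and did not pass (adjusted p = 0.117). The largest estimate of the list was positive and did not pass, that of the sterol transporter Abcg8 at 0.60 ± 0.16 (adjusted p = 0.0571), with -0.02, 0.88 and 0.95 in the 3 replicates, and its partner Abcg5 had 0.32 ± 0.26. Of 13 PPARA targets of fatty acid oxidation 2 fell, 1 rose and 10 did not pass (median -0.07). Pdk4, a kinase that shuts off pyruvate dehydrogenase, rose by 0.95 ± 0.17 (adjusted p = 0.0119), and the fatty acid hydroxylases Cyp4a14 and Cyp4a10 fell by 0.56 ± 0.09 (adjusted p = 0.00598) and 0.29 ± 0.07 (adjusted p = 0.0467). Of 11 Wnt targets, a pathway in which TBL1 proteins bind beta-catenin, Myc (-0.29 ± 0.07, adjusted p = 0.0348) and Glul, glutamine synthetase (-0.31 ± 0.07, adjusted p = 0.028), fell and 9 did not pass (median -0.07). Of 8 JNK and inflammatory genes restrained by GPS2 and NCoR, the chemokine gene Cxcl2 fell by 0.44 ± 0.10 (adjusted p = 0.0281) and 7 did not pass (median -0.04). Il1b, Tnf, Nos2 and Ptgs2 had mean control signals below the lowest array median of 6.82. So near the floor of background a fall could hardly show, and the list median includes them. Cxcl1 was lower in 3 of 3 replicates (-0.40 ± 0.14, adjusted p = 0.136), while Ccl2 and Cxcl10 had replicates on both sides of 0. Cxcl2 is also made by macrophages, of whose 10 markers 4 fell as given above, and the part of those cells in its change was not tested.

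**Figure D4:**
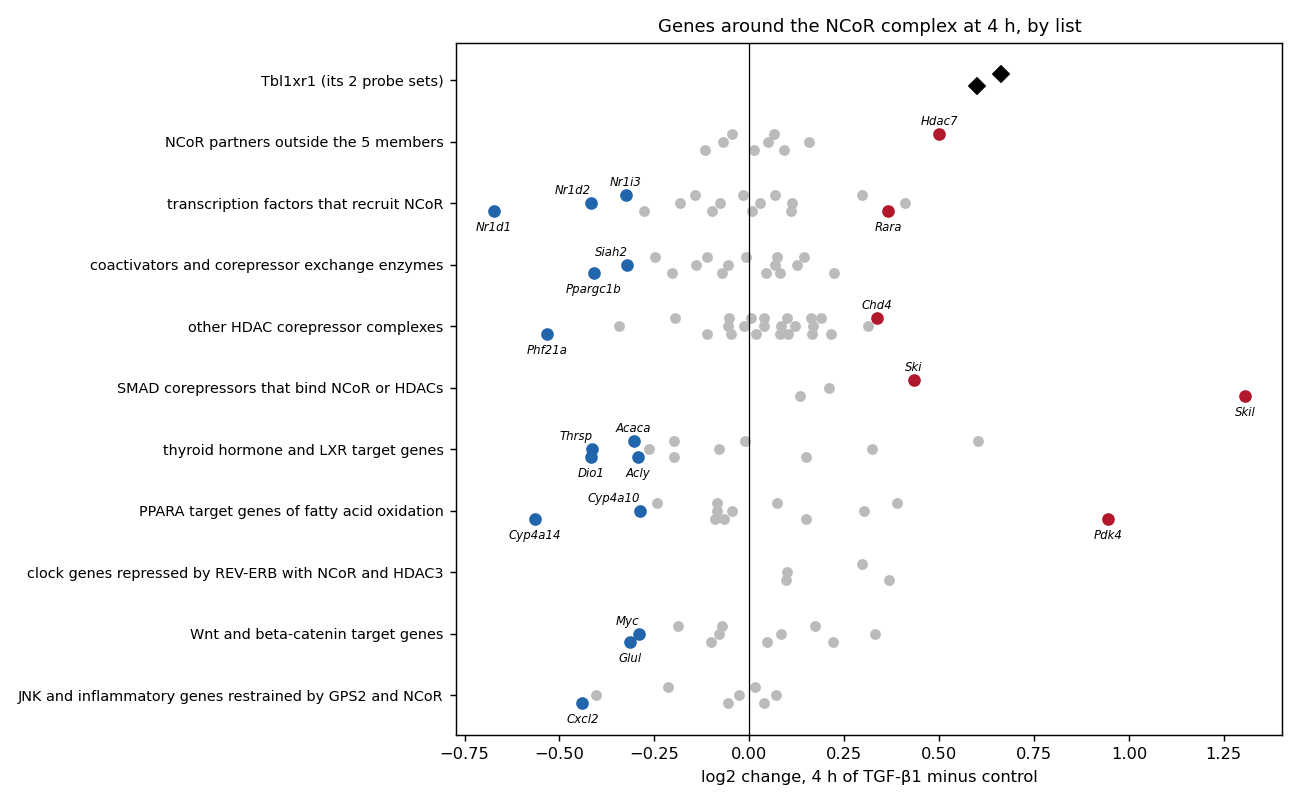
Log2 change at 4 h against the control (horizontal axis) of each measured gene, by list (vertical axis). Grey points did not pass the test, red and blue points rose and fell (limma, adjusted p under 0.05), and black diamonds are the Tbl1xr1 probe sets, shown with no test. Tbl1xr1, at 0.66 and 0.60, lies beyond all but Skil and Pdk4 among the genes that rose. It was picked for its 4 h change, so a high place was favoured in advance.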

How the data were processed

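Arrays of Mouse Gene ST type were hybridized with biotin-labelled total RNA of 12 hepatocyte samples. The deposited values are log2 signals that the authors made with RMA in Affymetrix Power Tools without stated versions, a method of background correction, quantile normalization and summary by probe set. The study's methods name FARMS and ComBat for its own analysis, and the deposited values were used here without batch adjustment. Of 35556 probe sets, 21789 with exactly 1 symbol in the platform's probe table were tested with no filter on low signal, and 1621 with several symbols and 12146 not listed or without a symbol were left out. Where a list gene had several probe sets the brightest was used, and every probe set of a member is given. Arrays hold no read counts, so precision rests on how many arrays there are and on the spread of each probe set over them.

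Changes were estimated in R 4.3.3 with limma 3.58.1 (statmod 1.5.0 for the random block), with time and replicate as factors after the study's methods, 6 residual and 5.39 prior degrees of freedom, and Benjamini-Hochberg adjustment over all tested probe sets. Calls are at an adjusted p under 0.05. A test over the whole time course by betr was not run. Arrays of the same replicate number deviated together from their group means (r from 0.56 to 0.88 over 18 pairs). With replicate 1 apart in every group, such correlations can arise for replicates 2 and 3 without any pairing. Arrays of unlike replicate numbers were not compared, so whether the numbers pair the samples was not tested. No 2 arrays held identical values. Named genes are the members, up to 4 called per list and direction, the 5 genes most like and 3 most opposite to Tbl1xr1, and cell type markers. Tgif1, Tgif2, Arntl, Nfil3, Cry1, Clock, Abcg5, Abcg8, Il1b, Tnf, Nos2, Ptgs2, Cxcl1, Ccl2 and Cxcl10 were named after their values were seen. A gene of the partner list is not reported here. The members and lists were chosen with earlier results of these data known. Scripts were tested on simulated data. Alternatives were other treatments of the replicate number, other normalizations, priors, weights and filters, and leaving out replicates or arrays.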

Additional observations from a re-analysis of the deposited data

How the results depend on the processing

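With 3 arrays a group and replicate 1 apart from the rest, calls depended strongly on the replicate block. Every group holds the same 3 replicate numbers. With all arrays kept, the block, the groups fitted, the probe sets tested and the prior therefore cannot move an estimate. Only other normalizations, array weights, averaged probe sets or left-out arrays can. Under these last alternatives the 4 h estimates of the members kept their direction. With all replicates kept, estimates at all times moved by less than the spread of replicates, apart from averaging the Tbl1xr1 probe sets, which gave 0.075 for the brighter one at 2 h (0.026 alone) and -0.20 for the dimmer one at 20 min (-0.28 alone). Probe sets called at 4 h numbered 1000, against 31 with no replicate block, 225 with a random replicate block, 352 with the compared groups alone, 323 with all probe sets tested, 1799 with array weights and 21 at the study's threshold of adjusted p under 0.01 and 2-fold. The list genes called numbered 21, against 0 with no replicate block, 4 with a random block, 4 with the compared groups alone, 5 with all probe sets and 32 with array weights. At 20 min and 2 h the count of 0 became 4 and 9 with a trended and robust prior. Leaving out a replicate or an array gave 0 to 10 probe sets at 20 min, 0 to 43 at 2 h and 32 to 1187 at 4 h, and 0 to 28 list genes. The 4 h change then ran from 0.53 to 0.77 and from 0.40 to 0.75 for Tbl1xr1 on probe sets 10491038 and 10491056, 0.11 to 0.24 for Tbl1x, -0.16 to -0.081 for Hdac3 and 0.04 to 0.27 for Gps2. At 2 h it ran from -0.037 to 0.11, 0.03 to 0.18, -0.14 to 0.02, -0.13 to -0.05 and -0.07 to 0.19 in the same order, and at 20 min from -0.19 to -0.03, -0.36 to -0.22, 0.00 to 0.16, -0.20 to -0.03 and -0.10 to 0.088. Fewer or weighted arrays and a longer list of tested probe sets enter these alternatives by construction, and the cause of the shifts was not tested.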
